A study of Mus musculus with 8 samples.

Results

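The SoxB and SoxC genes were examined in RNA-seq of induced immature oligodendrocytes (iOLs) with and without Med23, a subunit of the Mediator complex that links transcription factors to RNA polymerase II. The 7 members were taken by gene symbol from the 24346 genes of the deposited table: Sox1, Sox2 and Sox3 of the SoxB1 group, Sox21 of the SoxB2 group, and Sox4, Sox11 and Sox12 of the SoxC group. All 7 were listed, and all 7 passed the filter of a mean of at least 1 FPKM (fragments per kilobase of transcript, scaled to library size) over the 8 libraries. The libraries were 4 from Med23+/+ and 4 from Med23-/- iOLs, labelled WT and KO.

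OPCs, the precursors of oligodendrocytes, were immunopanned with a CD140a antibody from the brains of P7 mice. They were kept in the mitogens PDGF-AA (10 ng/mL) and NT-3 (1 ng/mL) and then differentiated for 1 day in 15 nM T3, the active thyroid hormone, with 10 ng/mL of the cytokine CNTF. By the study's methods, the Med23-/- cells came from Med23 fl/fl;Olig1-Cre mice, and the controls were Med23 fl/fl littermates without Cre, so the floxed alleles were common to both genotypes. Olig1-Cre acts in cells that express Olig1, such as OPCs, and thus only cells with a history of Olig1 expression lost the gene. Only the Med23-/- cells carried Olig1-Cre, so effects of Olig1-Cre and of Med23 loss cannot be told apart. No label states whether the replicates were separate animals or cultures, and the p-values measure the spread between these libraries only.

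SOX proteins bind DNA through an HMG box that recognizes short sequences such as ACAAAG and ACAATG, usually beside a partner factor such as a POU protein. SoxB1 proteins activate transcription in neural stem and progenitor cells and hold them in an undifferentiated state, whereas the SoxB2 protein Sox21 represses many of the same targets. SoxC proteins are activators that succeed SoxB1 proteins in cells leaving the progenitor state and are best known from immature neurons. In the oligodendrocyte lineage, Sox2 and Sox3 are expressed in OPCs and decline with maturation, and forced Sox4 expression keeps precursors from making myelin.

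In Med23-/- iOLs the families did not move as blocks. Sox3 and Sox11 were higher than in Med23+/+ iOLs, by 2.5-fold and 1.72-fold in mean FPKM, and Sox2 fell to 0.611 of its Med23+/+ mean, with no overlap between the genotypes for any of these 3 genes. Sox12 (0.690 of its Med23+/+ mean) and Sox4 (0.683) were lower and the weakly expressed Sox1 was higher (2.17-fold), each with a call that depended on the libraries included, and Sox21 was not called. The SoxB1 and the SoxC group thus each held members called in opposite directions. With limma and a Benjamini-Hochberg adjusted p under 0.05 over the 12328 genes tested, 6 of the 7 members were called, 3 lower and 3 higher. The same rule called 30.0% of all genes tested, 14.1% lower and 15.9% higher. The count of lower members was 1, namely Sox2, when Med23+/+ replicate 1, 3 or 4 was left out. The genotypes did not overlap for 4 of the 7 members, and for 31.6% of all genes tested.

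**Figure D1:**
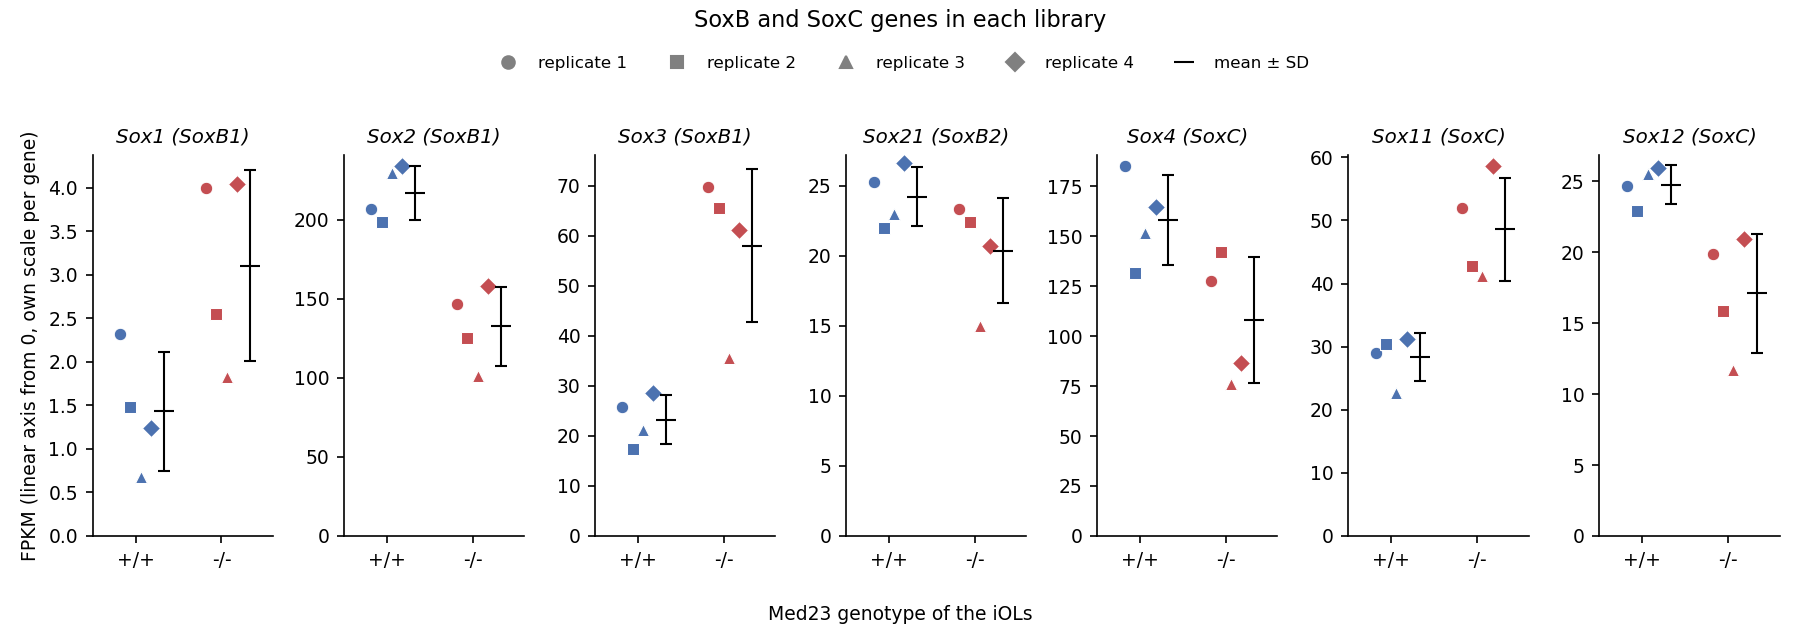
FPKM of the 7 SoxB and SoxC genes in each library on linear axes that start at 0, with 1 symbol per replicate and the mean ± SD (n = 4) beside each genotype. Sox2 and Sox12 lay lower and Sox3 and Sox11 higher in all 4 Med23-/- libraries than in any Med23+/+ library, and the Med23-/- replicate 3 was the lowest of its genotype for all 7 genes.

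The files used here give FPKM and no read counts, and library depth is therefore unknown. Each library listed between 15941 and 16469 genes above 0. Med23 itself averaged 12.5 ± 0.225 FPKM in controls and 8.26 ± 0.247 FPKM after deletion (SD over 4 libraries), a change of -0.55 on the log2 scale of FPKM + 1 (adjusted p = 0.000353, limma). FPKM is given over the whole gene, and the source of the remaining Med23 signal was not tested. OPC markers were present in every library (Pdgfra 105 to 347 FPKM), while none of 8 microglial markers reached the filter and their summed level was 1.06 to 2.37 FPKM. Of 8 endothelial and mural markers 1 reached it, Kdr (mean 0.505 FPKM in Med23+/+ and 1.65 FPKM in Med23-/-), only through its Med23-/- level. The sum of the 8 was 0.762 to 1.38 FPKM in Med23+/+ against 1.46 to 3.75 FPKM in Med23-/-. Astrocyte markers, 7 of 10 tested with 3 lower and 1 higher, summed to 102 to 147 FPKM without deletion and 70.2 to 107 FPKM with it. In bulk RNA, fewer cells of a type and less RNA per cell cannot be told apart.

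The members are compact genes. In GENCODE vM21 on mm10, 6 of the 7 had a single exon, and Sox12 had 2 transcripts with up to 2 exons. Sox1 lies at chr8:12395295-12400126 on the plus strand and Sox2 at chr3:34650405-34652461 on the plus strand. Sox3 lies at chrX:60891366-60893430, Sox21 at chr14:118233232-118237030 and Sox4 at chr13:28948919-28953713, all on the minus strand. Sox11 lies at chr12:27334264-27342574 and Sox12 at chr2:152393611-152398063, both on the minus strand. The long noncoding RNA gene Sox2ot surrounds Sox2 on the same strand, and 0 of its 44 exons overlapped Sox2. Annotated genes also overlap Sox1 (Sox1ot and Gm25239, same strand), Sox4 (Gm26735, opposite strand) and Sox21 (Gm4675, opposite strand). Those 4 were not listed under these symbols. The counting was not stated to use strand, so reads from stretches shared by Sox4 or Sox21 and the gene opposite cannot be told apart. Strand could not separate Sox1 from its same-strand neighbours. Exons of Sox2ot fall outside Sox2 in this annotation, and only reads from its introns cannot be told apart from those of Sox2.

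The sequences upstream of the transcription start are shown for 3 members whose levels changed in different directions, Sox2 and Sox4 (lower) and Sox11 (higher). The Sox4 call depended on the libraries included. RefSeq promoters (GRCm38.p6) were found for 6 of the 7 members. Each window is 250 bases, written 5′ to 3′ on the strand of the gene, and capitals mark GGGCGG or its reverse complement CCGCCC, the core of the GC box bound by Sp family factors. The windows are chr3:34649745-34649994 (plus strand) for Sox2, chr13:28953700-28953949 (minus strand) for Sox4 and chr12:27342719-27342968 (minus strand) for Sox11. In GENCODE the last 14 bases of the Sox4 window lie inside the gene. The Sox2 and Sox11 windows hold 0 bases of the GENCODE gene and stop short of its start (34650405 and 27342574). The Sox2 window lies inside Sox2ot.
Sox2: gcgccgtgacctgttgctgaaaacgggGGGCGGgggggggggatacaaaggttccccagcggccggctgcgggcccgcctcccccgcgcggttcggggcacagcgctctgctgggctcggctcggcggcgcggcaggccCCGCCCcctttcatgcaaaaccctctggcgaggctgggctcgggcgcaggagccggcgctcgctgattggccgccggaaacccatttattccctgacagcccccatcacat
Sox4: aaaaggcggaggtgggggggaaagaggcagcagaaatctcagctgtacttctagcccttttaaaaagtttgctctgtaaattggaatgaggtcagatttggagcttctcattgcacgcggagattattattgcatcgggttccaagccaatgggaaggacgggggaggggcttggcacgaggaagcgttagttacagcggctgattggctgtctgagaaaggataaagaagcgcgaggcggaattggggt
Sox11: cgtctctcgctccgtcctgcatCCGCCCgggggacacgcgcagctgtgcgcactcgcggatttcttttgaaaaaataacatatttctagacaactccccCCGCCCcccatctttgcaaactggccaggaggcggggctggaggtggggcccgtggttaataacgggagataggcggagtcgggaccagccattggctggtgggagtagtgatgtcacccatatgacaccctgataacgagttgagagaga
On both strands, GGGCGG was found 2 times in the Sox2 window, 0 times in that of Sox4 and 2 times in that of Sox11. The Sox1 and Sox12 windows held 3 matches each and the Sox21 window 0, and 224 bases of the Sox1 window lie inside the GENCODE gene. Of 32851 RefSeq windows of this length, 32.7% held at least 1 match. The GC content of the windows with matches was 71.2% for Sox1, 72% for Sox2, 58% for Sox11 and 74.4% for Sox12. It was 50.8% for Sox4 and 65.2% for Sox21, and the median of all windows was 52.4%. The part of GC content in the matches was not tested. The longer GGGGCGGGG, which contains GGGCGG, was found 2 times at Sox2, 1 time at Sox1 and 1 time at Sox11, and in 10.4% of all windows. The SOX sequence ACAAAG was found 1 time, in the Sox2 window (left in lower case), and in 16.5% of all windows, and ACAATG was found in none of the 6 windows and in 10.7% of all. Matches of GGGCGG were thus present in the windows of members that rose (Sox11, and Sox1 with its window mostly inside the gene) and of members that fell (Sox2, Sox12), and these letters were not in the windows of Sox4 and Sox21.

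Sox2 was the most abundant member. It was measured at 207, 198, 229 and 234 FPKM in Med23+/+ replicates 1 to 4 and at 146, 125, 101 and 158 FPKM in Med23-/- replicates 1 to 4. All Med23-/- libraries lay under the lowest Med23+/+ library. The mean went from 217 ± 17.2 to 133 ± 25.1 FPKM (SD over 4 libraries each). The log2 fold change was -0.72 (SE 0.14, 95% interval -1.03 to -0.42, adjusted p = 0.00346, limma). An exact permutation test of FPKM, two-sided, gave p = 0.0286, the smallest that 4 against 4 allows. Sox2 remained among the most highly expressed genes, at the 97.6th percentile of the genes tested in Med23+/+ and the 96.3rd in Med23-/- iOLs.

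Sox2ot, the noncoding gene that contains Sox2, moved the other way. Its level was 11.1, 12.6, 10.9 and 10.6 FPKM in Med23+/+ replicates 1 to 4, against 16.0, 16.9, 17.0 and 17.5 FPKM in the same order for Med23-/-. The groups did not overlap, and the log2 fold change was 0.54 (SE 0.08, adjusted p = 0.000808, limma).

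Sox3, a close relative of Sox2 with a similar role in progenitors, had the largest change among the members. It was at 25.7, 17.5, 21.2 and 28.6 FPKM in Med23+/+ replicates 1 to 4, and at 69.9, 65.5, 35.6 and 61.1 FPKM in the corresponding Med23-/- replicates. The lowest Med23-/- value, in replicate 3, was above the highest Med23+/+ value. The mean increased from 23.2 ± 4.89 to 58.02 ± 15.3 FPKM (SD over 4 libraries each), which is 1.26 on the log2 scale (SE 0.22, 95% interval 0.78 to 1.74, adjusted p = 0.00217, limma). The exact permutation p was again 0.0286. Sox3 was the one member past a fold change of 2 on the scale of FPKM + 1. Of all genes tested, 2.98% passed that fold upwards, and 4.73% in either direction, with an adjusted p under 0.05. The place of Sox3 among the genes tested went from the 69.8th to the 90.2nd percentile.

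Sox1, a SoxB1 gene of early neural progenitors, was near the filter on low values. Its values were 2.32, 1.48, 0.680 and 1.24 FPKM in Med23+/+ replicates 1 to 4, against 3.99, 2.55, 1.83 and 4.04 FPKM for Med23-/-. The groups overlapped, because Med23+/+ replicate 1 was above Med23-/- replicate 3. The mean was 1.43 ± 0.682 against 3.10 ± 1.09 FPKM (SD over 4 libraries each), and the log2 fold change was 0.76 (SE 0.24, 95% interval 0.21 to 1.30, adjusted p = 0.0401, limma). The exact permutation p was 0.0571. With 0.1 in place of 1 added to FPKM, the log2 fold change was 1.11 (adjusted p = 0.0423, limma), past a fold change of 2. The call was lost when Med23+/+ replicate 2 (adjusted p = 0.0700, limma), 3 (0.102) or 4 (0.0871) was left out, and also without Med23-/- replicate 1 (0.107), 2 (0.0540) or 4 (0.0920).

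Sox21, the SoxB2 repressor, was at 25.3, 22.0, 23.0 and 26.6 FPKM in Med23+/+ replicates 1 to 4, and at 23.4, 22.4, 15.0 and 20.7 FPKM in the corresponding Med23-/- replicates. Apart from Med23-/- replicate 3, these values lay close together, and the groups overlapped. The mean was 24.2 ± 2.10 against 20.4 ± 3.73 FPKM (SD over 4 libraries each), or -0.25 on the log2 scale (SE 0.13, 95% interval -0.55 to 0.04, adjusted p = 0.178, limma) and an exact permutation p of 0.143. After a correction of each library for GC content the adjusted p was 0.0426 at a log2 fold change of -0.28 (limma). Sox14, the other SoxB2 gene, was listed at 0.124 FPKM in Med23+/+ replicate 1 and at 0 in the other 7 libraries.

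Among the SoxC genes, Sox11 was higher in Med23-/- iOLs. Sox11, an activator prominent in newly formed neurons, was at 29.0, 30.4, 22.7 and 31.2 FPKM in Med23+/+ replicates 1 to 4, and at 51.9, 42.7, 41.3 and 58.6 FPKM in the corresponding Med23-/- replicates. The groups were well apart. The mean was 28.3 ± 3.85 against 48.6 ± 8.15 FPKM (SD over 4 libraries each), the log2 fold change was 0.75 (SE 0.13, 95% interval 0.45 to 1.06, adjusted p = 0.00276, limma), and the exact permutation p was 0.0286. Sox11 went from the 75.5th to the 88.1st percentile of the genes tested.

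Sox4, the most abundant SoxC gene, was at 185, 132, 152 and 165 FPKM in Med23+/+ replicates 1 to 4, and at 127, 142, 76.0 and 86.8 FPKM in the corresponding Med23-/- replicates. Med23-/- replicate 2 was above Med23+/+ replicate 2, so the groups overlapped, and replicates 3 and 4 of the Med23-/- iOLs were far lower than replicates 1 and 2. The mean was 158 ± 22.6 against 108 ± 31.7 FPKM (SD over 4 libraries each), or -0.58 on the log2 scale (SE 0.20, 95% interval -1.02 to -0.14). The adjusted p of 0.0484 (limma) was just under the threshold, and the exact permutation p was 0.0571. The call was lost without Med23+/+ replicate 1 (adjusted p = 0.114, limma), 3 (0.0857) or 4 (0.103) and without Med23-/- replicate 3 (0.108) or 4 (0.104). Sox4 passed the threshold in 7 of the 19 alternative settings that kept the adjusted p alone as the rule.

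Sox12, a weaker activator than Sox4 and Sox11, was even across Med23+/+ libraries, at 24.7, 22.9, 25.6 and 26.0 FPKM. In Med23-/- iOLs it was at 19.9, 15.9, 11.7 and 21.0 FPKM, all under the lowest Med23+/+ value. The mean was 24.8 ± 1.36 against 17.1 ± 4.21 FPKM (SD over 4 libraries each), the log2 fold change was -0.54 (SE 0.16, 95% interval -0.89 to -0.19, adjusted p = 0.0265, limma), and the exact permutation p was 0.0286. The call was lost without Med23+/+ replicate 1 (adjusted p = 0.0530, limma), 3 (0.0630) or 4 (0.0653) and without Med23-/- replicate 2 (0.0584).

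Sox2, Sox3 and Sox11, by contrast, passed the threshold in each of the 19 alternative settings other than the fold limit of 2, which Sox2 and Sox11 did not reach, including each of the 8 in which 1 library was left out. Over those 8, the log2 fold change ran from -0.81 to -0.60 for Sox2, from 1.14 to 1.48 for Sox3 and from 0.66 to 0.83 for Sox11. The direction of each of the 7 members was the same in all settings in which it was tested. A change of filter, variance trend, replicate block, replicate covariate or fold limit could not alter a log2 fold change. Only the other settings could have changed a direction.

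**Figure D2:**
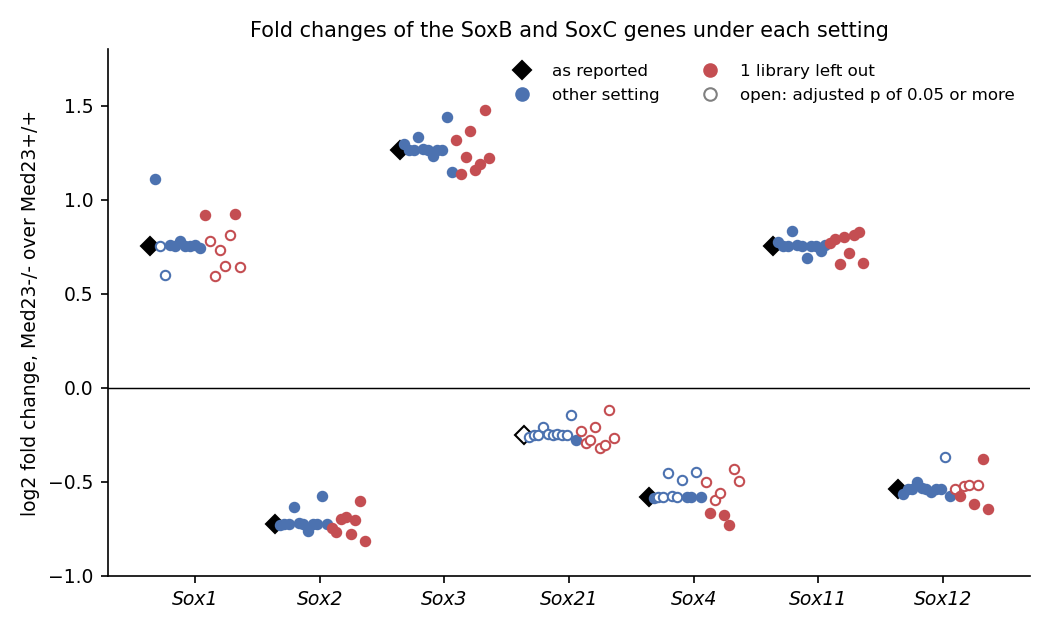
Log2 fold change (Med23-/- over Med23+/+) of each SoxB and SoxC gene under the reported setting (diamond), the other settings except the fold limit of 2 (blue) and with 1 library left out (red), with open symbols for an adjusted p of 0.05 or more. Sox2, Sox3 and Sox11 are filled throughout, while Sox1, Sox4 and Sox12 hold open symbols and Sox21 is filled in 1 setting, the GC correction.

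Within a genotype, some libraries were low for several members at once, but the members did not always move together. In Med23-/- replicate 4, for example, Sox2 deviated by 0.27 and Sox4 by -0.27 from the genotype mean on the log2 scale. Med23-/- replicate 3 was the lowest of its genotype for 7 of the 7 members, and Med23+/+ replicate 2 was the lowest of its genotype for 5 of the 7. The share of all genes tested that were lowest in these 2 libraries was not computed. Their median deviation over the genes with a GC value was -0.0026 and -0.034. In these 2 libraries the tenth of the genes with the highest GC content (1186 genes) had a median deviation from the genotype mean of -0.16 and -0.15 on the log2 scale, and the tenth with the lowest GC content of 0.13 and 0.09. The transcripts of Sox3 (66.4% GC), Sox12 (59.9%), Sox21 (58.3%) and Sox1 (56.9%) were GC-rich beside the median of 49.5% for the genes tested, whereas Sox2 (50.5%), Sox4 (51.1%) and Sox11 (46.5%) were not. With the GC correction, which was chosen after seeing the data, the log2 fold changes were 1.15 for Sox3, -0.72 for Sox2, 0.76 for Sox11, -0.58 for Sox12, -0.58 for Sox4 and 0.74 for Sox1, and all 6 stayed called. After this correction Med23-/- replicate 3 was still the lowest of its genotype for 7 of the 7 members, and Med23+/+ replicate 2 was so for 3. The part of GC content in the low values was not tested further.

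In Med23+/+ iOLs the order of the members' levels, which FPKM allows since it is per length, was led by Sox2 and then Sox4, whose ranges were apart. Sox11, Sox12, Sox21 and Sox3 followed within a narrow band of means from 28.3 down to 23.2 FPKM, and each overlapped its neighbour in range. Sox1 was last and apart from the others. In Med23-/- iOLs the ranges of Sox2 and Sox4 overlapped, with Sox2 the higher in 3 of 4 libraries. Sox3 came next and then Sox11, and these overlapped each other and stood apart from Sox21 and Sox12 below them.

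The make-up of each family differed between the genotypes, while its summed level overlapped. The summed SoxB1 level was 242 ± 20.1 FPKM without deletion and 194 ± 39.2 FPKM with it, and the libraries overlapped (217 to 264 against 138 to 223 FPKM). Sox3 made up 9.56 ± 1.53% of that sum in Med23+/+ iOLs and 29.7 ± 3.78% in Med23-/- iOLs (8.04 to 10.9% against 25.7 to 33.9%). The share of Sox2 went from 89.8 ± 1.69% to 68.7 ± 3.78%. The ratio of Sox3 to Sox2 was 0.0881 to 0.124 in the Med23+/+ and 0.353 to 0.524 in the Med23-/- libraries, a 4.08-fold difference of the means. The ratio of every Med23-/- library, including replicate 3, where both genes were at the lowest level of their genotype, was above that of every Med23+/+ library.

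The SoxC genes showed the same kind of shift. Their sum was 211 ± 23.9 FPKM without deletion and 174 ± 33.8 FPKM with it, again with overlap (185 to 239 against 129 to 201 FPKM). Sox11 accounted for 13.5 ± 2.26% of it in Med23+/+ (11.4 to 16.4%) and for 28.6 ± 6.19% in Med23-/- iOLs (21.3 to 35.2%). The share of Sox4 went from 74.7 ± 2.70% to 61.5 ± 7.87% and that of Sox12 from 11.8 ± 1.08% to 9.90 ± 2.0%. The ratio of Sox11 to Sox4 was 0.150 to 0.231 against 0.301 to 0.675, and that of Sox11 to Sox12 was 0.889 to 1.33 against 2.61 to 3.52. These shares and ratios are composed of the values above and are given as a description.

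**Figure D3:**
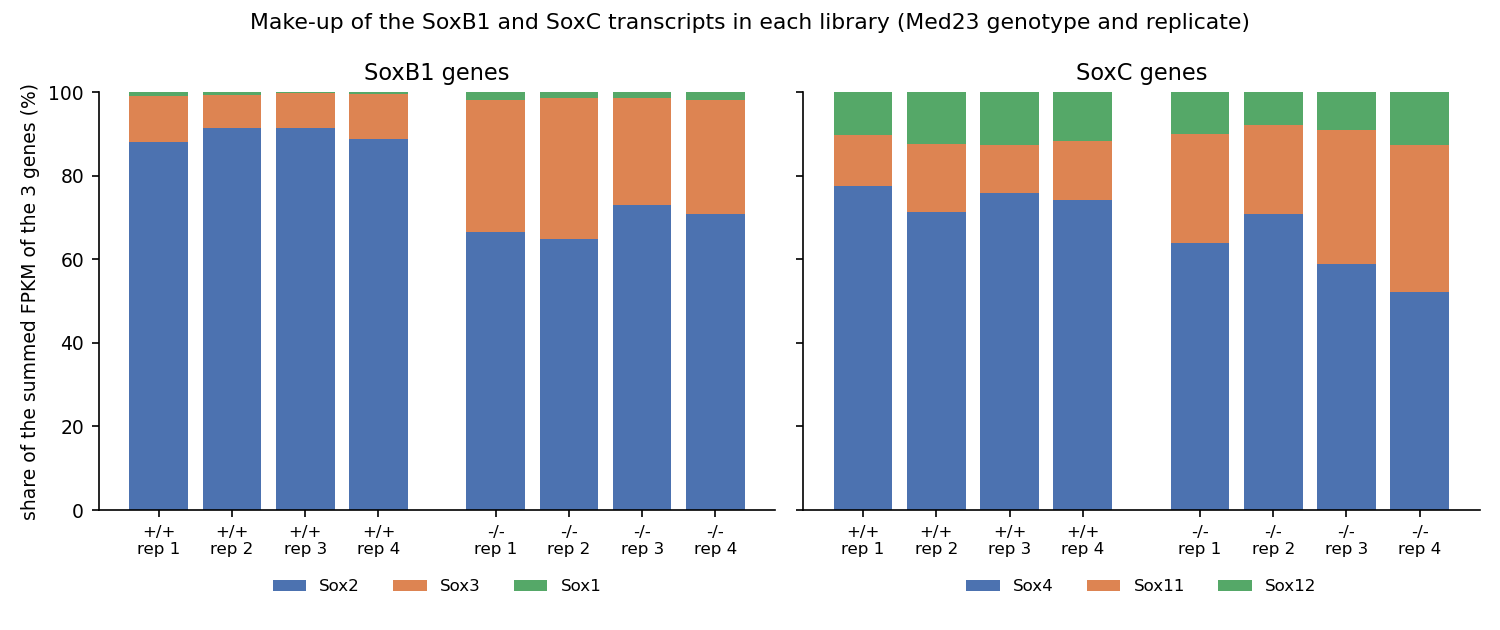
Share of each gene in the summed FPKM of the 3 SoxB1 genes (left) and the 3 SoxC genes (right), with 1 stacked bar per library. The Sox3 share was 8.04 to 10.9% in Med23+/+ and 25.7 to 33.9% in Med23-/- libraries, and the Sox11 share 11.4 to 16.4% and 21.3 to 35.2%.

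Of the 13 other Sox genes, 6 passed the filter. Sox5 (-0.85), Sox10 (-0.49) and Sox6 (-0.45) were lower on the log2 scale and Sox9 was higher by 2.67, and Sox8 (-0.20) and Sox13 (-0.16) were not called. Sox10 is the lineage factor that activates myelin genes, Sox5 and Sox6 restrain it in precursors, and Sox9 acts at the specification of glia. The largest change of a SoxB or SoxC gene, 1.26 for Sox3, was thus smaller than that of Sox9.

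**Figure D4:**
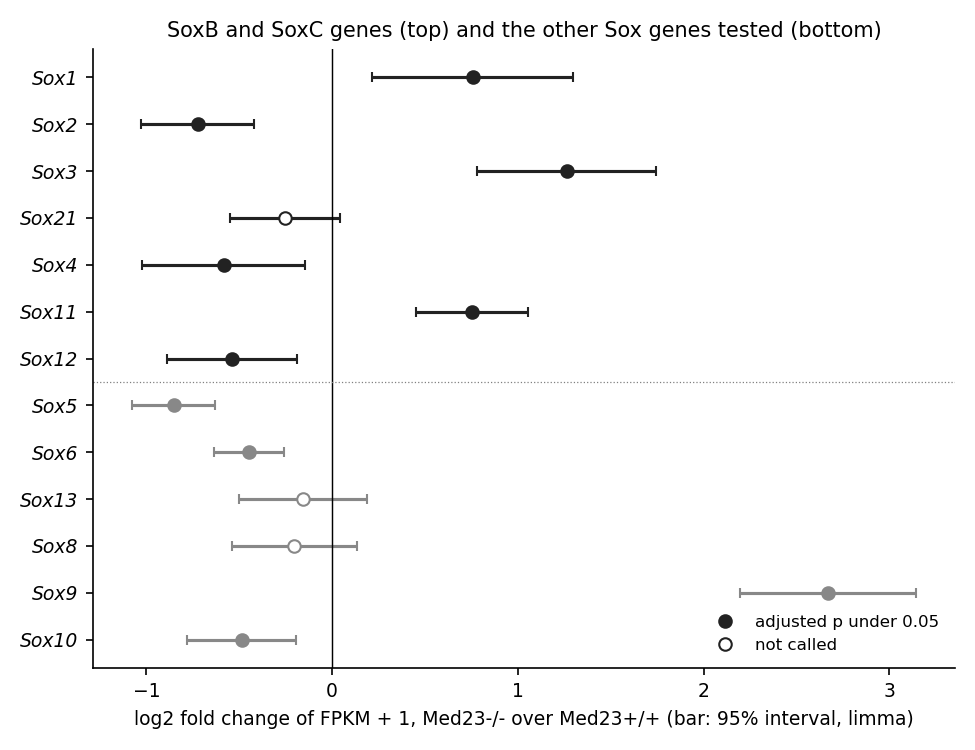
Log2 fold change of FPKM + 1 (Med23-/- over Med23+/+) with its 95% interval from limma, for the 7 SoxB and SoxC genes (black) and the 6 other Sox genes tested (grey). Sox1, Sox3 and Sox11 lie above 0 and Sox2, Sox4 and Sox12 below it, between Sox5 at -0.85 and Sox9 at 2.67.

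SOX proteins act with partners. Of 11 genes for partners of SoxB and SoxC proteins, all tested, 5 were higher, 2 were lower and 4 were not called, with a median log2 fold change of 0.37 beside -0.01 over all genes tested. The POU factor genes Pou3f1 (1.43), Pou3f3 (0.83) and Pou3f2 (0.45) were higher, as were Pou2f1 (0.22) and Chd7, a chromatin remodeler that acts with SOX proteins (0.76). Pou3f1 was at 6.77 to 10.2 FPKM without deletion and 15.3 to 37.0 FPKM with it. The deacetylase genes Hdac1 (-0.47) and Hdac2 (-0.32) were lower. With Med23+/+ replicate 1 or 2 left out 3 partner genes were higher, and 0 were lower without Med23+/+ replicate 3 or Med23-/- replicate 1 and 1 without Med23+/+ replicate 2 or 4 or Med23-/- replicate 2. Under quantile normalization or without replicate 3 of either genotype 0 were lower, and with no filter 1 was. Chd8 (-0.05, adjusted p = 0.576, limma) and Pou3f4 (0.41, adjusted p = 0.182) were among those not called.

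Genes that mark neural progenitors were set beside the SoxB1 genes. Of 19 listed, 16 were tested, 8 were higher, 0 were lower, and the median log2 fold change was 0.50. Prom1 and Hmga2 were among the 8 and averaged under 1 FPKM in Med23+/+ iOLs, so they passed the filter only through their Med23-/- levels. With a minimum mean of 5 FPKM 6 were higher, and without replicate 3 of either genotype 4 were. The intermediate filament genes Nes (1.67) and Vim (1.51), the growth factor receptor gene Egfr (1.65) and the cyclin gene Ccnd2 (1.04) were the most changed. Nes was at 5.12 to 8.69 FPKM without deletion and 16.5 to 38.1 FPKM with it. Sox2, which marks the same cells, fell while these rose.

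Many of the Id, Hes and Hey proteins are HLH inhibitors of differentiation factors, and Hes5 is a known target of Sox4 in OPCs. Of 9 genes listed, 8 were tested, 6 were lower and 0 higher, with a median log2 fold change of -0.73. With weighted samples or without Med23+/+ replicate 1, 1 gene was higher. Id1 (-2.61) and Id3 (-2.38) had the largest changes. Hes5 was at 32.2 to 54.4 FPKM without deletion and 21.5 to 29.8 FPKM with it, a log2 fold change of -0.72 (SE 0.16, adjusted p = 0.00741, limma). Hes1 was under the filter.

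A list of neuron genes held markers of immature neurons (Dcx, Tubb3, Neurod1), where SoxC proteins are best known, together with genes of mature or GABAergic neurons (Rbfox3, Snap25, Syt1, Gad1, Gad2). Of 16 listed, 15 were tested, 13 were higher and 0 lower, with a median log2 fold change of 1.00. Tubb3, a tubulin gene that SoxC proteins can activate, was at 10.8 to 19.4 FPKM without deletion and 23.3 to 30.4 FPKM with it (log2 fold change 0.91), and Dcx changed by 0.53 and Stmn2 by 1.54. The genes past a fold change of 2 were 8 in number, and 5 of them were Snap25 (1.31), Syt1 (1.32), Rbfox3 (1.05), Gad1 (1.47) and Gad2 (1.16), named after their values were seen. The summed level of the 16 genes was 333 to 362 FPKM without deletion and 469 to 604 FPKM with it. It was highest in Med23-/- replicates 3 and 4 (584 and 604 FPKM), and Sox11 was lowest of its genotype in replicate 3 and highest in replicate 4. The part of neurons in the Sox11 result was not tested.

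The stage of the cells differed as well. Of 12 myelin genes, 8 were tested and all 8 were lower (median log2 fold change -1.49). Mog and Mag were among these 8 and averaged 0.539 and 0.860 FPKM in Med23-/- iOLs. They passed the filter of 1 FPKM only through their Med23+/+ levels (2.65 and 14.2 FPKM). Of 10 committed precursor genes 8 were lower and 0 higher (median -1.37). Among 15 OPC genes 6 were higher and 3 lower (median 0.51; 1 lower without Med23+/+ replicate 1, 3 or 4), and all 15 proliferation genes were higher (median 0.96). The proliferation genes summed to 268 to 499 FPKM without deletion and 583 to 1045 FPKM with it. Stage, cycling state and genotype moved together in these libraries, and their parts in the members' changes cannot be told apart.

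**Figure D5:**
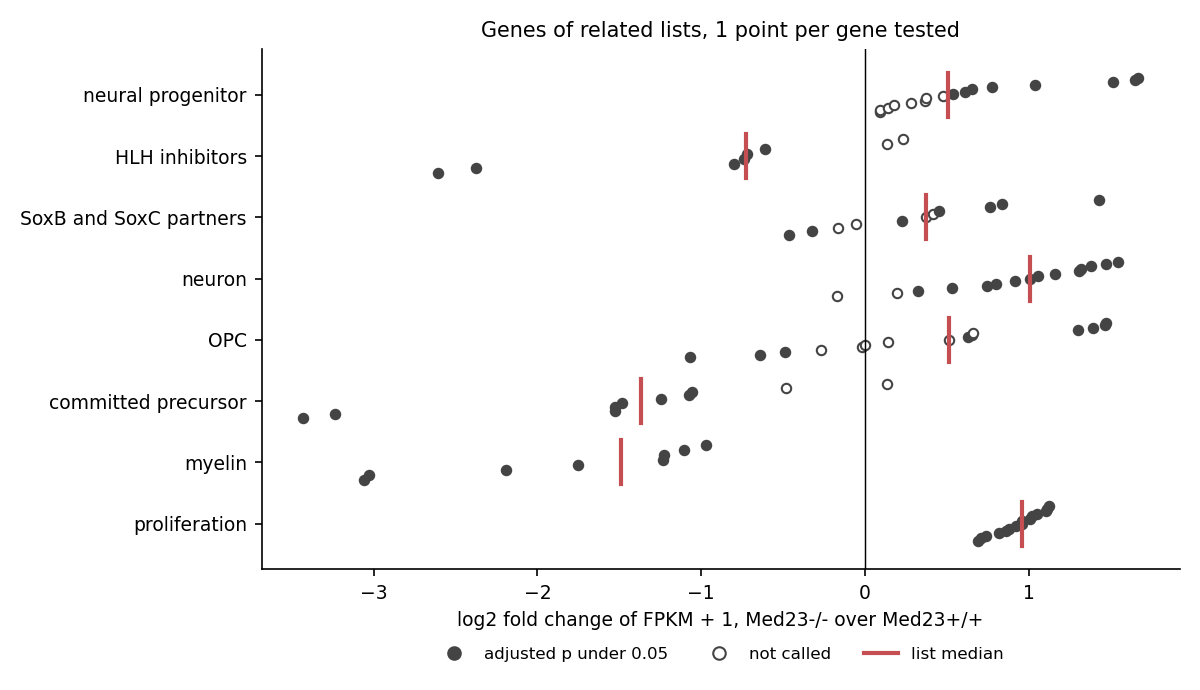
Log2 fold change of FPKM + 1 (Med23-/- over Med23+/+) for the tested genes of 8 lists, with 1 point per gene, filled for an adjusted p under 0.05 (limma), and a red bar at the list median. The medians run from -1.49 for myelin genes to 1.00 for neuron genes, with 0.50 for neural progenitor genes and -0.73 for HLH inhibitors.

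For each member, the genes with the most alike pattern were found by the root-mean-square difference of centred log2(FPKM + 1) over the 8 libraries, among the 9433 or 9434 genes whose mean reached 5 FPKM. Sox3 was closest to Gsx1 (0.170), a homeobox gene of ventral forebrain progenitors, followed by Whrn and the Notch ligand gene Dll1. Gsx1 was at 12.7 ± 3.01 FPKM without deletion and 35.3 ± 7.75 FPKM with it. Sox1 was closest to Cdt1 (0.130), Mybl2 and Zfp367, of which Cdt1 licenses DNA replication and Mybl2 drives cell cycle genes. Sox2 and Sox12 shared their nearest gene, Map7d1 (0.0876 and 0.0713), which encodes a microtubule-associated protein. Sox11 was closest to Ctc1 (0.0562), Sox4 to Wtip (0.10) and Sox21 to Nlgn2 (0.0392). Whrn, Mybl2 and Zfp367 averaged under 5 FPKM in Med23+/+ iOLs and were compared only because of their higher Med23-/- levels. These distances are descriptions over libraries that share the genotype difference.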

How the data were processed

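RNA-seq libraries (a commercial NEB kit, total RNA) of 4 Med23+/+ and 4 Med23-/- iOL samples were sequenced by the authors. Trimming used Cutadapt, alignment to mm10 used TopHat2, and the authors deposited the FPKM per gene and library that Cuffdiff (-b -u) gave. Tool versions and the annotation are not given in the sources used here. The fold changes and p-values of the authors' own comparison, also in the table, were not used.

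Values were compared as log2(FPKM + 1) with limma 3.58.1 (R 4.3.3, eBayes with trend, no covariates), for the 12328 genes whose mean reached 1 FPKM. The Benjamini-Hochberg adjustment ran over these genes, with calls under 0.05. A fold change on this scale understates the change of low genes, Sox1 among them. Single genes also got an exact permutation test of FPKM (two-sided). The procedure was tested on simulated data. Without counts, no depth-based interval could be given. The worth of a read in FPKM was estimated from the genes with the lowest values above 0, by their most common ratio to Med23+/+ replicate 1. It ran from 0.741 to 1, the value of that library. This relative estimate does not give the number of reads.

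Named genes were the members, Med23, genes at the ends of the lists or beside a member, and the 3 most alike genes per member. Sox2ot and the other genes overlapping members were named from the annotation. The members and lists were chosen with earlier results of these data known. Coordinates and GC content came from GENCODE vM21, sequences from RefSeq. Alternatives were a pseudocount of 0.1, no filter, a minimum mean of 5 FPKM, median-ratio or quantile scaling, weighted samples, no trend, a replicate block, a fold limit of 2 and leaving out each library. A covariate for replicates 1 and 2 against 3 and 4, leaving out replicate 3 of both genotypes, and the GC correction were added after seeing the data. Python 3.11.15, pandas 2.3.3, numpy 2.4.6, scipy 1.17.1 and matplotlib 3.10.9 were used.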

Additional observations from a re-analysis of the deposited data

How the results depend on the processing

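Of 12328 genes, 1738 were lower and 1957 higher. These counts were 1060 lower without replicate 3 of either genotype (chosen after seeing the data), 1281 higher at a mean of at least 5 FPKM, 216 and 367 with a fold over 2, and 1225 to 1667 lower and 1556 to 1864 higher when 1 library was left out. Of the members, 3 were lower, 1 without replicate 3 of either genotype, 0 with a fold over 2 and 1 to 3 with 1 library left out, and 3 were higher, 1 with a fold over 2 and 2 to 3 with 1 library left out. On the scale of FPKM + 1, a fold over 2 ends the calls of Sox1 (0.76), Sox2 (-0.72), Sox4 (-0.58), Sox11 (0.75) and Sox12 (-0.54). With a pseudocount of 0.1 the log2 fold change of Sox1 was 1.11 (adjusted p = 0.0423, limma). By limma's adjusted p, Sox1 missed the threshold with no filter (0.76, adjusted p = 0.0673) and quantile normalization (0.60, 0.0831), and was not tested at a mean of at least 5 FPKM. Sox4 missed it with sample weights (-0.49, 0.0561), median-ratio scaling (-0.58, 0.0512), quantile normalization (-0.45, 0.122), no filter (-0.58, 0.0792), a minimum mean of 5 FPKM (-0.58, 0.0509), no variance trend (-0.58, 0.0551) and without replicate 3 of either genotype (-0.45, 0.158), where Sox12 missed it too (-0.37, 0.0673). Sox21 passed with the GC correction alone (-0.28, 0.0426). With 1 library left out, the log2 fold change ran from 0.59 to 0.92 for Sox1, -0.81 to -0.60 for Sox2, 1.14 to 1.48 for Sox3, -0.32 to -0.12 for Sox21, -0.73 to -0.43 for Sox4, 0.66 to 0.83 for Sox11 and -0.64 to -0.38 for Sox12. No member changed direction in these settings, some of which cannot alter a fold change, and the cause of the lost calls was not tested.

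Replicate numbers are shared by the genotypes, and no label says whether they pair the libraries. Deviations of same-numbered libraries correlated at -0.10 to 0.16, and those of differently numbered ones at -0.18 to 0.16. Of 8 libraries, 3 were most alike to the one with their own number. So few correlations cannot decide whether the libraries were paired. With the number as a replicate block, 1835 genes were lower and 2085 higher, and 3 members were lower and 3 higher. The design is balanced, so the block could not change a log2 fold change, and each stayed as given above. The SE of every member was smaller with the block, from 0.14 against 0.24 for Sox1 to 0.12 against 0.14 for Sox2. With the block, limma's adjusted p was 0.00871 for Sox1, 0.00624 for Sox2, 0.00278 for Sox3 and 0.124 for Sox21. It was 0.0485 for Sox4, 0.00153 for Sox11 and 0.0252 for Sox12. Depth was unknown, so its limits on these values could not be given.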
